A study of Mus musculus with 4 samples.

Results

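The outer hair cells (OHCs) of the organ of Corti carry a set of genes by which they are told apart from inner hair cells (IHCs), and 9 of these genes were followed here in organs of Corti that had lost Tbx2. They were the regulators Insm1, Insm2, Ikzf2, Bcl11b and Neurod6, the effectors Slc26a5 and Ocm, and the OHC-enriched genes Strip2 and Rprm. Their probes were found by gene name among the 39429 non-control probes of the arrays. This gave 14 probes, and 11 of them, from 8 of the 9 genes, were bright enough to be tested. The whole array held 28104 tested probes.

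RNA came from the basal part of organs of Corti of NMRI mouse embryos and was measured on 4 dual-colour Agilent arrays. Sox2-Tbx2LOF embryos were Sox2(creERT2);Tbx2(fl/fl), so that the tamoxifen-dependent recombinase CreERT2, knocked into the Sox2 gene, removed the floxed Tbx2 alleles from Sox2-expressing cells. Controls were labelled Tbx2(fl/n.d.), with the other Tbx2 allele not determined, and per the methods of the study lacked the recombinase. All dams received 4 mg of tamoxifen at embryonic stage E16.5, and the methods add progesterone at this stage, with dissection at E18.5. The mutants therefore differed from controls by the Sox2 knock-in as well as by the loss of Tbx2. The methods also give Sox2-Tbx2LOF mice a fluorescent reporter allele, R26mTmG, which recombines only where the recombinase is present. Per the methods, spiral ligament and spiral ganglia had been removed, and every pool held organs of several embryos of 1 sex. On each of the 4 arrays a pool of either genotype was compared with its counterpart, both female on arrays 1 and 2 and both male on arrays 3 and 4. The Sox2-Tbx2LOF RNA was labelled with Cy3 on arrays 1 and 3, and with Cy5 otherwise. The comparison asked how genes of the OHC program respond when Tbx2 is lost after hair cells have formed.

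OHCs amplify sound by changing their length, whereas IHCs pass the signal to the auditory nerve. TBX2 is a T-box transcription factor that is found in IHCs and in the supporting cells around them. Young hair cells enter the OHC fate under INSM1, a zinc-finger protein that keeps genes of early IHCs silent in them, and IKZF2 later maintains the adult OHC program. In bulk tissue such as this, fewer cells of a type and less RNA per cell cannot be told apart.

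The median spot signal lay between 346 and 412 in the Sox2-Tbx2LOF channel and between 315 and 411 in the control channel, and 70.4% to 75.2% of spots were well above background in either. Y-linked and Xist probes separated the female from the male pools as labelled. The Tbx2 probe gave a log2 ratio of Sox2-Tbx2LOF over control of -0.15 ± 0.14 (SD, n = 4, limma adjusted p = 0.31). Whether it lies in the floxed part is not given in the sources used here, so that it checks no label. The Sox2 probe, of the gene that carries the knock-in, gave 0.23 ± 0.09. All 12 genes of a list shared by all hair cells, such as Myo7a, were above background.

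Among the regulators, Insm2, which codes for a zinc-finger protein related to INSM1, rose in Sox2-Tbx2LOF organs of Corti to 1.84-fold of control. Strip2, which codes for a striatin-interacting protein of the STRIPAK phosphatase and kinase complex, rose to 1.69-fold. No probe of the other 7 genes passed the test. For Ocm, the calcium-binding protein oncomodulin, the ratio was above 0 on 4 of 4 arrays at 1.20-fold. The probes of Insm1, Ikzf2, Bcl11b, Neurod6 and Rprm stayed between -0.10 and 0.11 on the log2 scale, and Slc26a5, the OHC motor protein prestin, was not above background.

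Insm2, Strip2 and Ocm were each represented by a pair of probes of different brightness and normalized ratio, so the probes are shown first. A probe of the array is 60 bases long, and the last 30 bases are given 5' to 3', on the strand of the transcript. Capitals mark AATAAA, the common signal for cleavage and polyadenylation, which was present in 12.6% of all 39429 probes. Coordinates come from the array annotation (mouse build mm9), which names no exon.
Insm2 A_55_P2058330 (chr12:56702946-56703005, + strand, base 3042 of the transcript): ggatttgtaagaatggttctgccaAATAAA
Insm2 A_55_P2058335 (chr12:56701785-56701844, + strand, base 1881): ctcctgcaagtactgcccgtccactttttt
Strip2 A_51_P515242 (chr6:29909511-29909570, + strand, base 5199): ttccacatagaagcatgccatttgtatgat
Strip2 A_55_P1994688 (chr6:29894432-29894491, + strand, base 1975 of another transcript): ggatttgccagagcttactaccgagagtct
Ocm A_55_P2073825 (chr5:144780676-144780735, - strand, base 675): aatcacccAATAAAataatttctcatcatt
Ocm A_55_P2094916 (chr5:144785309-144785368, - strand, base 258): agacaacgaccagagtggatacctggatga
The first probe of each pair lay nearer to the 3' end of its gene, and for Insm2 and Ocm it held the signal. These were also the probes of the pair that rose well above background in either channel of every array. The remaining probes of the 9 genes were Ikzf2 A_52_P413515 and A_66_P122551 on chromosome 1, Insm1 A_55_P1977943 and Rprm A_51_P278653 on chromosome 2, Slc26a5 A_55_P2263292 on chromosome 5, Neurod6 A_51_P394997 on chromosome 6, and Bcl11b A_51_P171772 and A_52_P925277 on chromosome 12.

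For Insm2, probe A_55_P2058330 had normalized log2 levels in the control pools of 9.07, 9.09, 8.83 and 9.04 on arrays 1 to 4. In the Sox2-Tbx2LOF pools they were 10.07, 9.80, 9.92 and 9.76. The lowest Sox2-Tbx2LOF pool stood above the highest control pool, and the groups did not overlap. The log2 ratios on the 4 arrays were 0.99, 0.71, 1.09 and 0.72, with a mean of 0.88 ± 0.19 (SD, n = 4, 95% CI 0.77 to 0.99, limma adjusted p = 5.47e-05). The ratio was higher on the arrays with Sox2-Tbx2LOF in Cy3, with a mean of 1.04 against 0.71 for the arrays in Cy5, a difference that the dye term of the fit takes up. The ratio was 0.85 in female and 0.90 in male pools, a difference of 0.05 (95% CI -0.20 to 0.30). Insm2 ranked 28th of all tested probes by the size of its ratio. The study had itself picked Insm2 from these arrays, so its call is no independent evidence. In situ hybridization, a separate measurement of the study, showed more Insm2 in OHCs and no ectopic signal in the innermost hair cell.

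The other Insm2 probe, A_55_P2058335, was bright enough in Sox2-Tbx2LOF pools on 2 arrays and in control pools on 1 array, and was not tested. Its ratios were 0.08, 0.00, 0.05 and 0.20, with a mean of 0.08 ± 0.08. An offset of 50 had been added to all signals, which pulls the ratios of dim probes towards 0. In the log ratio of the scanner software, which has no such offset, the same probe gave 0.36, 0.17, 0.30 and 0.66, with a mean of 0.37 ± 0.20. These are ratios of signals near background and give no support to the first probe.

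Strip2 had been read by probe A_51_P515242 at normalized log2 levels of 10.06, 10.63, 10.83 and 10.77 in the control pools. The Sox2-Tbx2LOF pools were at 11.20, 11.27, 11.48 and 11.35. The groups did not overlap, and the control pool of array 1 lay well below the other 3 controls. The log2 ratios were therefore uneven, at 1.14, 0.63, 0.65 and 0.58, with a mean of 0.75 ± 0.26 (SD, n = 4, 95% CI 0.58 to 0.93, limma adjusted p = 0.00219). Without array 1 the ratio was 0.63 and Strip2 was still called. In a fit that ignores the pairing of both pools on an array it was not called (unpaired limma, n = 4, adjusted p = 0.10). Nor was it called by Significance Analysis of Microarrays (SAM), which was rebuilt here and is not the study's own run.

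The second Strip2 probe, A_55_P1994688, was dim, with 4 Sox2-Tbx2LOF and 2 control arrays well above background. Its ratios of 0.08, 0.17, 0.17 and 0.07 gave a mean of 0.12 ± 0.06 (SD, n = 4, limma adjusted p = 0.623). The ratio was above 0 on each array without passing the test. In the scanner's log ratio the mean was 0.45 ± 0.16, and in the authors' table of fold changes it was set to no change.

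**Figure D1:**
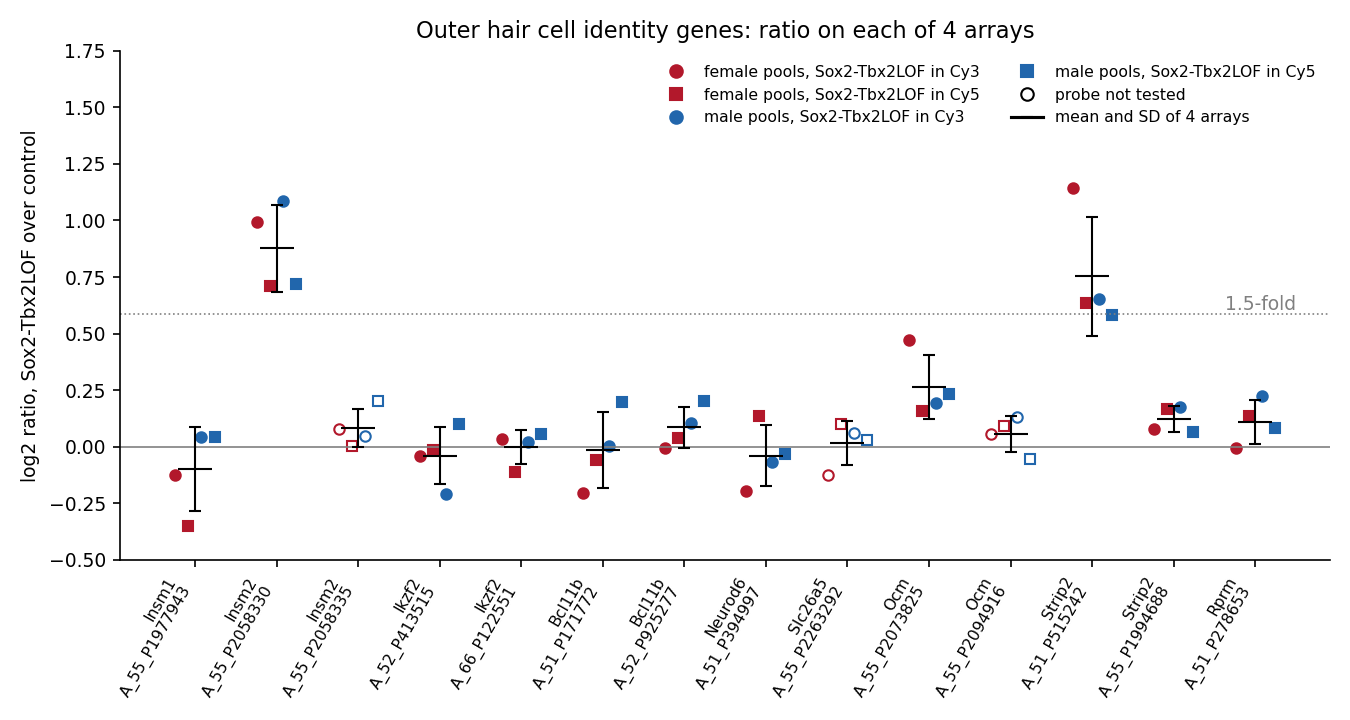
Log2 ratio of Sox2-Tbx2LOF over control on each of the 4 arrays for the 14 probes of the 9 genes, with sex by colour, dye orientation by shape, untested probes hollow, and mean and SD in black. Of the means, those of Insm2 A_55_P2058330 (0.88) and Strip2 A_51_P515242 (0.75) lie above the dotted 1.5-fold line.

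Ocm is a parvalbumin-like calcium buffer that adult OHCs hold in large amounts. Probe A_55_P2073825 read 7.00, 7.28, 7.38 and 7.31 in the control pools and 7.47, 7.44, 7.57 and 7.54 in the Sox2-Tbx2LOF pools, as normalized log2 levels. The groups did not overlap, although by little, and array 1 again had the lowest control. The ratios of 0.47, 0.16, 0.19 and 0.23 gave a mean of 0.26 ± 0.14 (SD, n = 4, 95% CI 0.13 to 0.40, limma adjusted p = 0.0991). Ocm did not pass the test after adjustment. The scanner's log ratio of this dim probe was larger, at 0.48 ± 0.31, with an adjusted p of 0.103 in limma. The adjusted p over all settings that gave one ranged from 0.0539 to 0.561. The second Ocm probe, A_55_P2094916, was not well above background on any array and had a ratio of 0.06 ± 0.08. In the scanner's log ratio it was at 0.37 ± 0.54, again from signals near background.

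Slc26a5 codes for prestin, which drives the length changes of OHCs. Its single probe, A_55_P2263292, was not well above background in either genotype on any array. Spot signals in Cy3 were 33.2 to 39.3, over a local background of 30.2 to 33.2, and in Cy5 76.5 to 91.6 over 67.9 to 81.0. The probe was not tested, and neither a level nor a ratio of Slc26a5 can be given.

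Insm1 is the zinc-finger regulator of the young OHC. Its levels in the control pools were 11.53, 11.57, 11.38 and 11.25, and in the Sox2-Tbx2LOF pools 11.41, 11.22, 11.42 and 11.30. The groups overlapped. The mean ratio was -0.10 ± 0.19 (SD, n = 4, 95% CI -0.26 to 0.06), an interval that ends short of 1.5-fold on either side. A change confined to the inner row, a minority of the hair cells, could stay below 1.5-fold in bulk tissue. The ratio was below 0 on both arrays of female pools and slightly above 0 on both arrays of male pools.

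Ikzf2 codes for the zinc-finger factor Helios. Probe A_52_P413515 was at 10.33, 10.28, 10.33 and 10.12 in control pools and at 10.29, 10.27, 10.12 and 10.22 in Sox2-Tbx2LOF pools. Its ratio of -0.04 ± 0.13 (95% CI -0.16 to 0.08) and that of the dimmer probe A_66_P122551, 0.0003 ± 0.0751 (95% CI -0.11 to 0.11), were both close to 0. In each probe the levels of the genotypes overlapped.

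Bcl11b codes for a zinc-finger factor that marks OHCs in the cochlea and is otherwise known from T cells and neurons. Probe A_52_P925277 gave ratios of -0.01, 0.04, 0.11 and 0.20, with a mean of 0.09 ± 0.09 (SD, n = 4, limma adjusted p = 0.9996). Probe A_51_P171772 gave -0.21, -0.06, 0.00 and 0.20, with a mean of -0.02 ± 0.17. The spread came in part from array 1, where the control level of this probe was 10.12 against 9.41 to 9.51 on the other arrays. For neither probe did the 95% interval, 0.20 and 0.12 at its upper end, reach 1.5-fold. Inner-row hair cells are a minority of the hair cells, so a gain confined to them could stay below 1.5-fold in bulk tissue. These intervals therefore cannot decide whether such cells gained Bcl11b. By immunofluorescence the study saw BCL11B protein in some inner-row hair cells of these mutants.

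Neurod6, a neuronal basic helix-loop-helix factor, had a ratio of -0.04 ± 0.14 (95% CI -0.16 to 0.08). Rprm, which codes for the cell cycle inhibitor reprimo, had a mean ratio of 0.11 ± 0.10 (limma adjusted p = 0.838, n = 4) and 0.22 on array 3. Levels of Rprm were high, between 13.54 and 13.87 in all pools, and the groups overlapped. Neurod6 overlapped as well, with levels from 7.19 to 7.43.

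**Figure D2:**
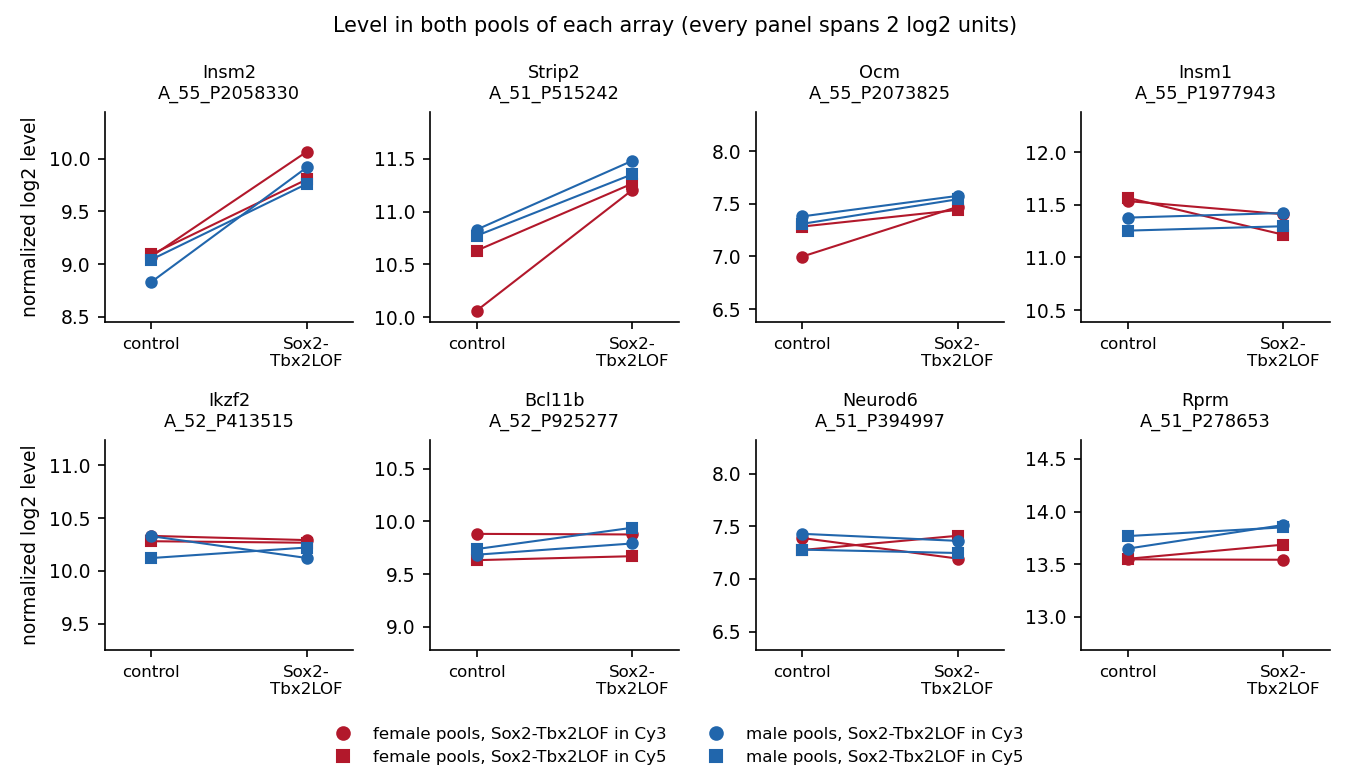
Normalized log2 level of the brightest probe of the 8 tested genes in the control pool (left) and the Sox2-Tbx2LOF pool (right) of each array, joined by a line. Insm2, Strip2 and Ocm rise along all 4 lines, with the control of array 1 lowest for Strip2 (10.06) and Ocm (7.00), while the other 5 genes run level or cross.

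Across the 11 tested probes, 2 were called higher and 0 lower at an adjusted p under 0.05 and at least 1.5-fold. Among all 28104 tested probes, 0.121% were called higher and 0.128% lower. At an unadjusted p under 0.05 there were 4 member probes, both of Strip2 and 1 each of Insm2 and Ocm, against 7.12% of all probes. For these 4 probes the levels of the genotypes did not overlap, with Sox2-Tbx2LOF higher, which was so for 1.2% of all probes, while 1.3% had Sox2-Tbx2LOF lower. The ratio was also above 0 on 4 of 4 arrays for these 4 and for 4.44% of all probes, and below 0 on 4 of 4 for 0 members and 4.58% of all probes. The dim probe Strip2 A_55_P1994688 is 1 of these 4 and had passed the filter on brightness only through the Sox2-Tbx2LOF channel, in which it is higher, so that it supports none of these counts, and 3 probes are left without it. The median ratio of the 8 genes, each by its brightest probe, was 0.10, while that of all tested genes was 0.002. The members had been chosen with results of these data known, and the counts describe them only.

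**Figure D3:**
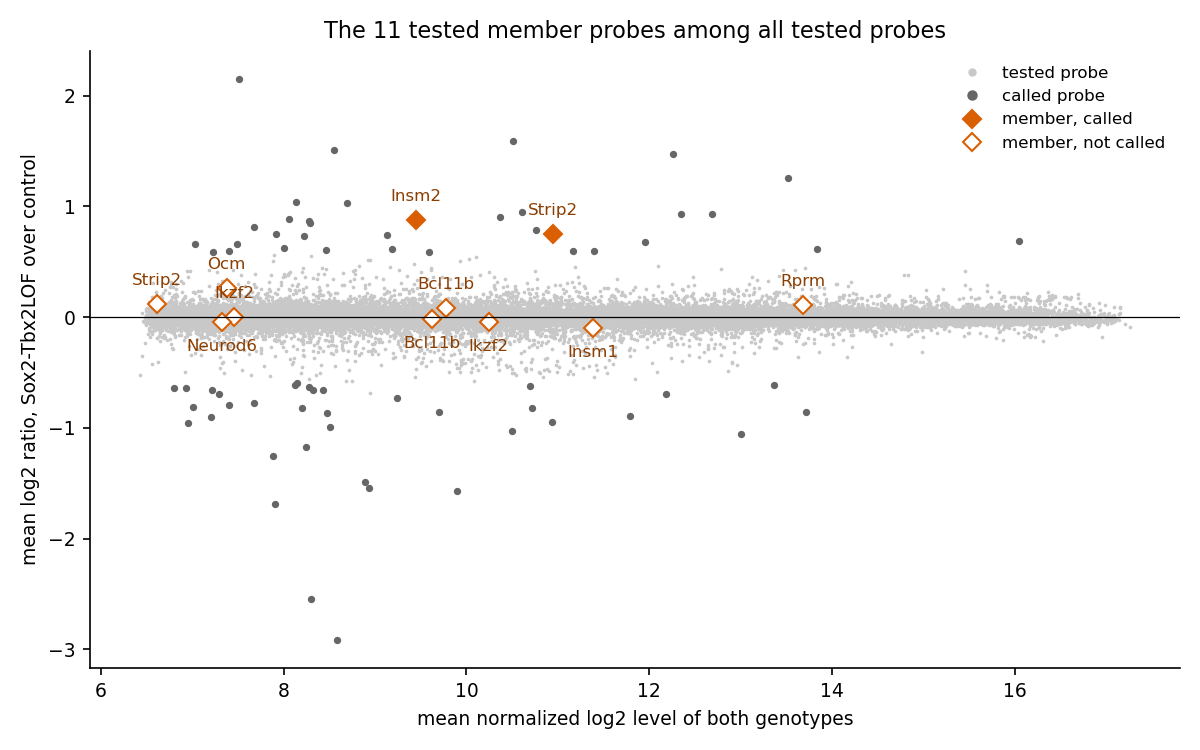
Mean log2 ratio of Sox2-Tbx2LOF over control against mean normalized log2 level for the 28104 tested probes, with called probes in dark grey and the 11 member probes as diamonds. Insm2 (0.88) and Strip2 (0.75) stand outside the band that holds most probes, and the other 9 member probes lie in or close to it.

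The sexes were compared for each member probe with a sex by genotype term. None of the 11 probes passed after adjustment in limma (lowest adjusted p = 0.9999, n = 4), and 0% of all 28104 probes did. With 4 arrays split by sex and a dye term in the fit, the test has little power. The lack of a pass does not show that the sexes are alike. At an unadjusted p under 0.05 there was 1 of the 11, against 2.01% of all probes. That probe was Insm1, with -0.24 in female and 0.04 in male pools, a difference of 0.28 (95% CI 0.01 to 0.55). For Strip2 A_51_P515242 the ratio was 0.89 in female and 0.62 in male pools, a difference of -0.27 (95% CI -0.58 to 0.04), and the female value included array 1. For Ocm it was 0.31 and 0.21.

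A further 10 genes enriched in OHCs were set beside the identity genes. Of these, 9 were tested and 0 were called, while 7 had a mean ratio above 0 and 2 below, with a median of 0.14. An unadjusted p under 0.05 was found for 4 of the 9, against 7.88% of all genes. Such p-values were also found for 6 of 12 genes of all hair cells and 3 of 5 mesenchymal genes. The highest was Rnf182, a ubiquitin ligase gene, at 0.41 ± 0.33 (limma adjusted p = 0.108, n = 4). Chrna10, a subunit of the nicotinic receptor through which efferent fibres reach OHCs, was at 0.25 ± 0.22 (limma adjusted p = 0.087, n = 4). Lmod3, which codes for an actin-nucleating protein, was at 0.20 ± 0.21. The lowest was Lbh at -0.11 ± 0.17. Rnf182, Chrna10 and Lmod3 were above 0 on 4 of 4 arrays without passing the test.

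Of 8 tested genes of IHCs, 4 were called lower and 0 higher, beside 0.155% and 0.13% of all 20044 genes. The mean ratio was below 0 for 6 and above 0 for 2 of them, with a median of -0.53, and 7 had an unadjusted p under 0.05. The list holds Tbx2, the gene deleted here, at -0.15 ± 0.14, which counts among the 6 and the 7 and in the median. Its ratio says nothing about the other IHC genes. Fgf8, a signal from IHCs to pillar cells, fell by 1.57 on the log2 scale, the calcium-binding protein gene Cabp2 by 1.17, Dnajc5b by 0.81 and Slc17a8, the vesicular glutamate transporter of IHCs, by 0.66 (limma adjusted p from 2.14e-06 to 0.000602, n = 4). Dnajc5b was well above background on 4 control arrays but on 2 Sox2-Tbx2LOF arrays, so that it was tested through the group where it is high and its value rests in part on signals near background. Otof, which codes for the synaptic protein otoferlin, fell by 0.40 and passed the adjusted p but not the fold. The 2 genes above 0 were Slc7a14 at 0.15 ± 0.04, above 0 on 4 of 4 arrays (limma adjusted p = 0.378, n = 4), and Calb2 at 0.01 ± 0.24. Of the 12 genes of all hair cells 0 were called and 6 had an unadjusted p under 0.05, with a median of 0.07 between -0.26 for Tmc1, a part of the mechanotransduction channel, and 0.21 for Espn, an actin bundler of stereocilia.

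Relatives of the members were read as well, since they share sequence with them. Of 13 such genes 12 were tested and 0 were called, with a median of -0.0002. Ikzf1, Ikzf3, Ikzf4 and Ikzf5 lay between -0.02 and 0.06, Bcl11a was at 0.01 and Pvalb, the parvalbumin relative of Ocm, at 0.09. The lowest was Neurod2 at -0.46 ± 0.35 (limma adjusted p = 0.087, n = 4).

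**Figure D4:**
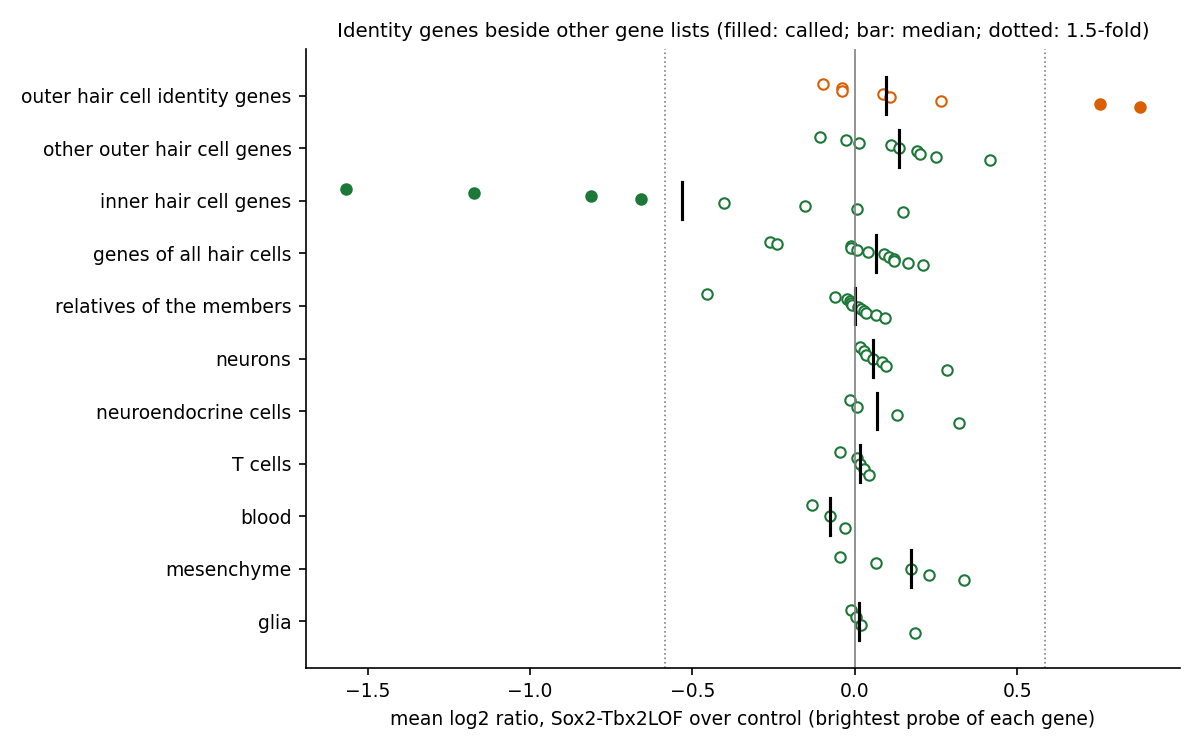
Mean log2 ratio of Sox2-Tbx2LOF over control for each tested gene of the identity genes and of 10 other lists, by brightest probe, with called genes filled and the list median as a bar. The identity genes have 2 called genes on the right and the IHC genes 4 on the left, and no gene of the other lists is called.

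Several members are also expressed outside OHCs, so markers of other cells were read beside them. Of 7 neuronal genes 0 were called, all 7 had a mean ratio above 0, with a median of 0.05, and their summed linear level was 129283 to 135861 in Sox2-Tbx2LOF and 125577 to 131062 in control pools. The highest was Syt1 at 0.28. Of 4 neuroendocrine genes, a cell type that uses Insm1 and Insm2, 0 were called, with a median of 0.07 and a highest value of 0.32 for Scg2, and sums of 37553 to 41121 against 36737 to 40717. Of 6 T cell genes 5 were tested and 0 were called, with Cd3d not above background and a median of 0.02. Blood genes had 0 of 3 tested called, glial genes 0 of 4. Mesenchymal genes had 0 of 5 called and 3 with an unadjusted p under 0.05, with a median of 0.17, the highest for Col1a1 at 0.34, and sums of 180181 to 189947 in Sox2-Tbx2LOF against 151968 to 186029 in control pools. The part of these cells in the ratios of Insm2, Strip2 and Ocm was not tested.

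Genes with the most similar levels to the called probes across the 8 pools, after removal of the mean of each dye, were found by Pearson's r. The pools of both genotypes share arrays, and the genotypes lie apart in them, so the values are a description. For Insm2 these were Esr1 (r = 0.989), Rhox4a (r = 0.986) and Calml3 (r = 0.986), with ratios of 2.15, 0.34 and 0.32. Esr1 codes for the estrogen receptor, of which CreERT2 carries a part of the human form, and CreERT2 was present in mutants alone. Whether the Esr1 probe reads CreERT2 was not tested. For Strip2 they were Ccn4 (r = 0.995), Smtnl1 (r = 0.989) and Tac4 (r = 0.988), with ratios of 0.20, 0.23 and 0.61.

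The neighbouring genes were read to see whether a wider stretch of the chromosome had changed. The 3 nearest tested genes on either side of Insm2 were Prorp, Psma6, Nfkbia, Ralgapa1, Brms1l and Mbip, with ratios between -0.02 and 0.08. For Strip2 they were Tspan33, Smo, Ahcyl2, Nrf1, Ube2h and Zc3hc1, with ratios between -0.02 and 0.12. Genes without a tested probe were passed over. None of these neighbours passed the test.

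The sequence before the start of both called genes, and of Ocm, is shown because TBX2 is a DNA-binding factor. RefSeq promoters of build GRCm38.p6 were at hand for 7 of the 9 genes, all except Ikzf2 and Insm1. The 250 bases before the start are given 5' to 3' on the strand of the gene, and capitals mark the T-box core GGTGTG (or CACACC on the other strand) and the E-box CANNTG, which basic helix-loop-helix factors such as ATOH1 bind.
Insm2 (chr12:55598667-55598916, + strand): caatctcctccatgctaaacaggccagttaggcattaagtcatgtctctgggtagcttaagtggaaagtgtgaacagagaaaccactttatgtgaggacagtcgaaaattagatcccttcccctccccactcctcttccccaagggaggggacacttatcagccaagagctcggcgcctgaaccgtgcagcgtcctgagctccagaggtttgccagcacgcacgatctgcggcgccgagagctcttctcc
Strip2 (chr6:29916763-29917012, + strand): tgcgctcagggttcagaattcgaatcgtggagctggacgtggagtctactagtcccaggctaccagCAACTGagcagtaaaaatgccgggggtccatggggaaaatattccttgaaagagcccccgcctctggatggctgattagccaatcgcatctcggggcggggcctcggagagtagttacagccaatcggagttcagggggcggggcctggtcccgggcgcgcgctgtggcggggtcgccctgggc
Ocm (chr5:144050610-144050859, - strand): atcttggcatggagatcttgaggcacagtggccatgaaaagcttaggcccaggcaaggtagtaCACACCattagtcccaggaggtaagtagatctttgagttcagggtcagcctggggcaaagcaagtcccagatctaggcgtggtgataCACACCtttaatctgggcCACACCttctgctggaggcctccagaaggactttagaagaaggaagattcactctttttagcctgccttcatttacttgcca
The window of Insm2 held neither motif, that of Strip2 held 1 E-box and no T-box core, and that of Ocm held 3 T-box cores and no E-box. Of 32851 windows of this length, taken from all but 1 chromosome, 16.3% held the T-box core and 66.2% the E-box. The longer form AGGTGTGA (or TCACACCT) was in 1.12% of these windows and in 0 of the 7. Neurod6 had 1 T-box core and 2 E-boxes, and Rprm, Slc26a5 and Bcl11b had neither. A match is a string of letters and no proof of binding, and TBX2 binding was not measured here.

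The ratio of Insm2 was between 0.85 and 1.00 under all 18 alternative settings, and that of Strip2 between 0.62 and 0.89. Some of these settings change only the filter, the model or the threshold and leave the ratio as it was. In the authors' table of fold changes both ratios were as large, at 1.00 and 0.80, without passing the test (limma adjusted p = 0.110 and 0.353, n = 4).

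**Figure D5:**
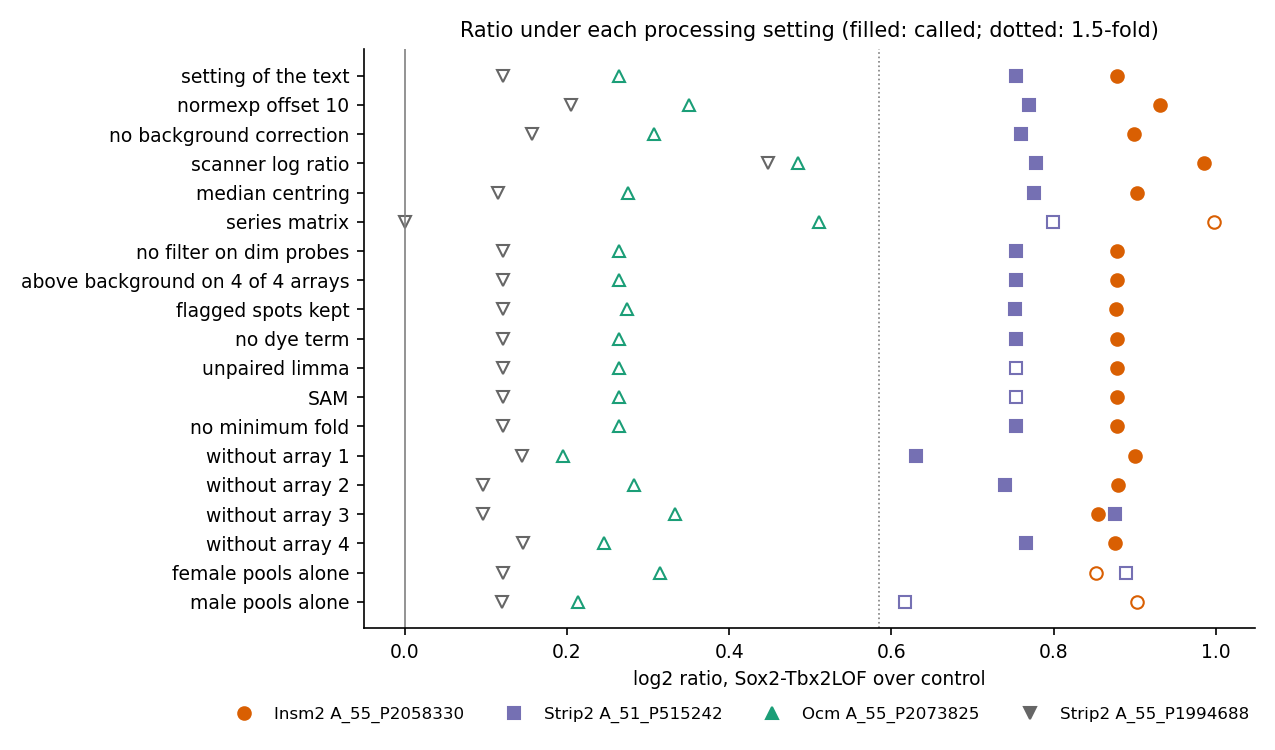
Log2 ratio of Insm2, Ocm and both Strip2 probes under each processing setting, filled where the probe was called and hollow where it was not or where no test was run (female or male pools alone). Insm2 stays between 0.85 and 1.00 and Strip2 A_51_P515242 between 0.62 and 0.89, while Ocm ranges from 0.19 to 0.51 and the dim Strip2 probe from 0.00 to 0.45.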

How the data were processed

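Total RNA of 4 pools per genotype was hybridised to 4 dual-colour arrays. The deposited files hold spot intensity values (mean signal and local background) from Agilent Feature Extraction 10.7.3.1, not normalized, and a log10 ratio of red over green, made by the authors with the background and dye correction of the scanner. The deposited series table holds a score, a signed fold change whose normalization is not given in the sources used here. It ran in the direction of Sox2-Tbx2LOF over control, with r = 0.937 to 0.953 to the normalized log2 ratios described below. Its median was 1 on each array. Groups, dyes and sexes came from the labels.

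Background was corrected in limma 3.58.1 (R 4.3.3) by normexp with an offset of 50, ratios were loess-normalized within arrays, outlier-flagged spots (3.23% to 3.56%) were left out, and the 4 spots of a probe were averaged. For 1 Ocm probe, A_55_P2073825, 15 of 16 spots remained. Levels were further scaled between arrays by quantiles of average brightness. A probe was tested when well above background on at least 3 of 4 arrays in either genotype. The log2 ratios were fitted with lmFit and eBayes and a dye term, two-sided, with Benjamini-Hochberg adjustment over all 28104 probes. A call needed an adjusted p under 0.05 and 1.5-fold. The scripts were tested on simulated data. The number of arrays limits the precision. The methods state independent pools and name SAM, a 2-class unpaired test, which was run as an alternative because both pools of an array share its spots. SAM was rebuilt here on the normalized levels with 70 regroupings of the pools, so its calls can differ from those of the study. The arrays carry 1 scan time in the file headers, so no batch could be set as a block.

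The members and lists were chosen with earlier results of these data known. Every member probe is reported. From the other lists, called genes, those with an adjusted p under 0.05 and the highest and lowest are named, and any tested gene of the OHC, IHC and relatives lists may be. For each called member the 3 genes with the most similar levels are named. A gene's brightest probe stands for it. Single values of some listed genes are not reported here.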

Additional observations from a re-analysis of the deposited data

Results flagged for a closer look

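For each of the 14 member probes the ratio and both levels were checked for a single array far from the other 3, where chance flags about 1 in 20 groups of 4. Of 42 such groups, 2 had one, both on array 1. For Strip2 A_51_P515242 the log2 ratio of array 1, 1.14, lay apart from 0.58 to 0.65 on the other arrays, with a gap of 0.875 of the whole range. For Bcl11b A_51_P171772 the control level of array 1, 10.12, lay above 9.41 to 9.51, with a gap of 0.857 of the range.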

How the results depend on the processing

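The member count, 2 called probes, was the same under normexp with an offset of 10, no background correction, the scanner log ratio, median centring, both other filters on dim probes, flagged spots kept, no dye term, no minimum fold, and without any 1 array (2 to 2). It was 1 in the unpaired limma fit and 1 with SAM, where Insm2 was the call, and 0 with the authors' series matrix, which gave 0 for the companion genes too. The companion count was 4, or 4 to 5 when 1 array was left out. Over all probes, 70 were called against 1 with the series matrix, 124 with the scanner log ratio, 106 without array 1 and 277 with no minimum fold. No result reversed. Of 198 member ratios over the alternative settings, 189 stayed within their replicate spread and on their side of the threshold. In 13 the sign changed, all in uncalled probes. Both other filters, no dye term, the unpaired fit, SAM and no minimum fold leave the ratio itself as it was. Under these settings only the call could change, so the counts overstate how far the ratios were probed. Leaving out 1 array gave 0.85 to 0.90 for Insm2, 0.63 to 0.88 for Strip2 A_51_P515242 and 0.19 to 0.33 for Ocm. The sex by genotype count stayed 0 with the scanner log ratio and without the dye term. The ratio within an array pairs both of its pools, and the unpaired limma fit above is the fit without this pairing. Signals near background limit Slc26a5 and the second probes of Insm2, Strip2 and Ocm.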
